A study of Mus musculus with 20 samples.

Results

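Lipogenesis, the synthesis of fatty acids from carbohydrate, is represented here by 10 genes that encode its enzymes, its transcription factors and closely linked proteins: *Fasn*, *Acaca*, *Acacb*, *Acly*, *Me1*, *Srebf1*, *Mlxipl*, *Pnpla3*, *Thrsp* and *Gpam*. They were taken by symbol from the 25444 loci in the deposited tables. Each symbol matched a single locus, and all 10 passed the filter on low counts that left 13704 genes for testing. RNA was taken from the left lateral lobe of the liver of 20 mice at 20 weeks of age, with 5 females and 5 males of C57BL/6N (B6) and 5 females and 5 males of C3H/HeN (C3). Both are inbred strains with no introduced allele, C3 mice being prone and B6 mice resistant to spontaneous liver tumors. No mouse received a treatment. According to the methods, all mice were housed singly with free access to food and were given the same diets, and the sexes had a room each. Sex and room therefore cannot be told apart in any comparison of females with males. Sequencing was done in 3 pools of libraries, with 1 or 2 mice of every group in each.

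In hepatocytes, citrate exported from mitochondria is cleaved to acetyl-CoA, carboxylated to malonyl-CoA and built into palmitate with NADPH as the reductant. Insulin acts on this pathway largely through SREBP1c, a product of *Srebf1*, and glucose through ChREBP, the product of *Mlxipl*. Both factors bind the regulatory regions of many lipogenic genes, and the pathway is known to follow feeding and the time of day. The new fatty acids are elongated, desaturated and esterified to glycerol, and the triglyceride is stored in droplets or secreted in lipoproteins.

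The 10 loci lie on 6 chromosomes, with *Fasn*, *Acaca*, *Acly* and *Srebf1* on chromosome 11. The 250 bases before the start of each locus were read from the mm9 genome and searched on both strands for a sterol regulatory element (TCACNCCAC), an E-box (CACGTG), the CCAAT box, which is spelled by its name, and a GC box with the letters GGGCGG. At 9 of the 10 genes the start of the deposited locus was also a RefSeq transcript start, and at *Gpam* it lay 30 bases from one. *Me1*, *Mlxipl* and *Gpam* have 2 RefSeq starts each and *Srebf1* has 3. Only the window at the deposited start of each gene was searched. Shown here are the windows of *Fasn*, *Thrsp* and *Pnpla3*, which hold a CCAAT box and whose RNA differed widely between livers, and that of *Mlxipl*, which holds the single match to the sterol regulatory element and whose RNA varied little with sex and strain. Capitals mark matches to the CCAAT box on either strand and to the sterol regulatory element, and the sequences run 5′ to 3′ toward the start of transcription.
Fasn (mm9, chr11:120685862-120686111, minus strand): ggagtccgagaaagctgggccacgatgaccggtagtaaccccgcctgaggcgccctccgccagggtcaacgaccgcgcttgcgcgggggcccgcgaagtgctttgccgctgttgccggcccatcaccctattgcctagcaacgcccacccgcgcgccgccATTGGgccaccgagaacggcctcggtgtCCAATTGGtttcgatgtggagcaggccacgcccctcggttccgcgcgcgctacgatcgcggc
Thrsp (mm9, chr7:104566061-104566310, minus strand): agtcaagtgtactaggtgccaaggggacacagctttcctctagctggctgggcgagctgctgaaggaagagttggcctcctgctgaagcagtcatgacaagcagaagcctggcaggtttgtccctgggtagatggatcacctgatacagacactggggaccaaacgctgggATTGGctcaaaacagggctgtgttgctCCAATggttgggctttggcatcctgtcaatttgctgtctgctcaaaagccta
Pnpla3 (mm9, chr15:83997996-83998245, plus strand): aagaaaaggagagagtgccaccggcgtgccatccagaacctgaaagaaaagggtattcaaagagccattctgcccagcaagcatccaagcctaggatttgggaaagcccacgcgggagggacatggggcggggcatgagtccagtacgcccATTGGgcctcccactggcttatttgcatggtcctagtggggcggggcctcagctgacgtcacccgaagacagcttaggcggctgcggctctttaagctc
Mlxipl (mm9, chr5:135582511-135582760, plus strand): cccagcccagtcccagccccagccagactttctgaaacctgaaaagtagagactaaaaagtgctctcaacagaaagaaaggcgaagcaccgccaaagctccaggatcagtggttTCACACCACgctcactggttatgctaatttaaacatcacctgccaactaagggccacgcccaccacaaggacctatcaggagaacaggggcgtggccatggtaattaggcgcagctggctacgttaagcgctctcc
In *Fasn* the last pair of these CCAAT matches, at -62 to -58 and -59 to -55, read on opposite strands and overlap. The CCAAT box was in 4 of the 10 windows, against 33.8% of 32851 RefSeq promoter windows of the same length (RefSeq, GRCm38.p6). The GC box was in 5, against 32.7%, the sterol regulatory element in 1, against 1.05%, and the E-box in 0, against 6.02%. These matches describe the letters in the windows and nothing more.

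Library totals lay between 27370921 and 46835745 counted read pairs, and all 10 members had at least 20 counts in every liver. The tissue matched its label: 8 hepatocyte markers summed to between 82900 and 169000 CPM (counts scaled by TMM and by library total). *Adipoq*, *Plin1*, *Lep* and *Retn*, which define adipocytes, were each under 1 CPM in every liver, while the sum of the 7 adipocyte markers, 1580 to 6830 CPM, came almost entirely from *Car3*, which liver also expresses. Of the other listed adipocyte markers, *Cidea* averaged 0.999 CPM (SD 1.02) in B6 males and at most 0.00938 CPM in the other groups. *Lipe* averaged 10.4 to 12.8 CPM by group. Markers of other cells moved with the groups. The Kupffer cell sum was 419 to 555 CPM in B6 females against 267 to 417 in B6 males, and 281 to 426 CPM in C3 females against 195 to 289 in C3 males, and the endothelial and stellate sum was 721 to 878, 595 to 681, 627 to 725 and 539 to 614 CPM in the same order. Of 7 Kupffer genes tested, 4 were called lower in C3 than in B6 females and 3 in C3 than in B6 males, against 4.77% and 5.55% of all genes. Hepatocyte markers summed to 102000 to 135000, 82900 to 111000, 140000 to 169000 and 115000 to 141000 CPM. Most of each sum was *Alb*, which averaged 88000, 66000, 123000 and 93600 CPM, so the sums mainly follow that gene. Of the 8 hepatocyte markers, 1 had a log2 fold change above 0 for females against males in B6 and 1 in C3. For C3 against B6 there were 3 in females and 6 in males. Cholangiocyte markers summed to 21.6 to 43.6 CPM and erythroid markers to at most 1.44 CPM over all livers. The part of cell composition in the differences reported here was not tested, and in whole tissue fewer cells of a type and less RNA per cell cannot be told apart.

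To determine whether lipogenic expression differed with sex or strain, females were compared with males in each strain and C3 with B6 mice in each sex. Comparisons that share a group are not independent of each other. Among females, all 10 members had higher mean expression in C3 than in B6, where 53.4% of all genes did, with a median log2 fold change of 0.84 against 0.019 over all genes tested. *Acaca* passed the thresholds of the study (adjusted p under 0.001 and a log2 fold change beyond 0.5), as did 9.4% of all genes tested. This count of 1 was 5 without B6 female 4, 3 with DESeq2, 2 with limma and 0 with only the female livers in the fit. B6 female 4 had the highest value of its group for all 10 members, so leaving it out lowers the B6 female means. Over each liver left out in turn, the count ranged from 1 to 5. At an adjusted p under 0.05, 8 members were higher in C3 females and 0 were lower, where 17.7% of all genes were higher. *Acly* and *Mlxipl* were the exceptions.

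Between males of the strains the members did not follow the same direction. Their median log2 fold change, C3 against B6, was -0.23 against 0.015 over all genes, and 3 of the 10 were above 0, as were 52.4% of all genes. The quasi-likelihood test of edgeR called 0 members, where 9.64% of all genes were called, and 0 members had an adjusted p under 0.05, against 34.5% of all genes. At an unadjusted p under 0.05 there were 2 members, *Acaca* and *Gpam*, with the share of all genes not counted. DESeq2 and limma also called 0 at the thresholds of the study. Without B6 female 4 the count at an adjusted p under 0.05 was 2 (*Pnpla3* and *Gpam*), and without B6 female 5, B6 male 5 or C3 male 2 it was 1.

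The comparison of the sexes leaned in opposite directions in the 2 strains. In B6, 2 of 10 members had a log2 fold change above 0, females against males, as did 50.2% of all genes, and the median was -0.39 against 0.002 over all genes. *Me1* was called, against 6.34% of all genes, and *Me1*, *Thrsp* and *Gpam* were lower at an adjusted p under 0.05, against 18.4% of all genes. In C3, 9 of 10 were above 0, *Me1* by less than 0.01, as were 51.9% of all genes, and the median was 0.32 against 0.015. *Pnpla3* was called, against 6.9% of all genes, and *Fasn*, *Acacb* and *Pnpla3* were higher at an adjusted p under 0.05, against 20.1% of all genes. At an adjusted p under 0.05, the B6 count was 6 without B6 female 4, and 3 or 4 without any other liver. The C3 count was 5 without B6 female 4 and fell to 2 without C3 female 1. For these fits the share of all genes was not counted. The tests of the sex-by-strain difference are given after the single genes.

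**Figure D1:**
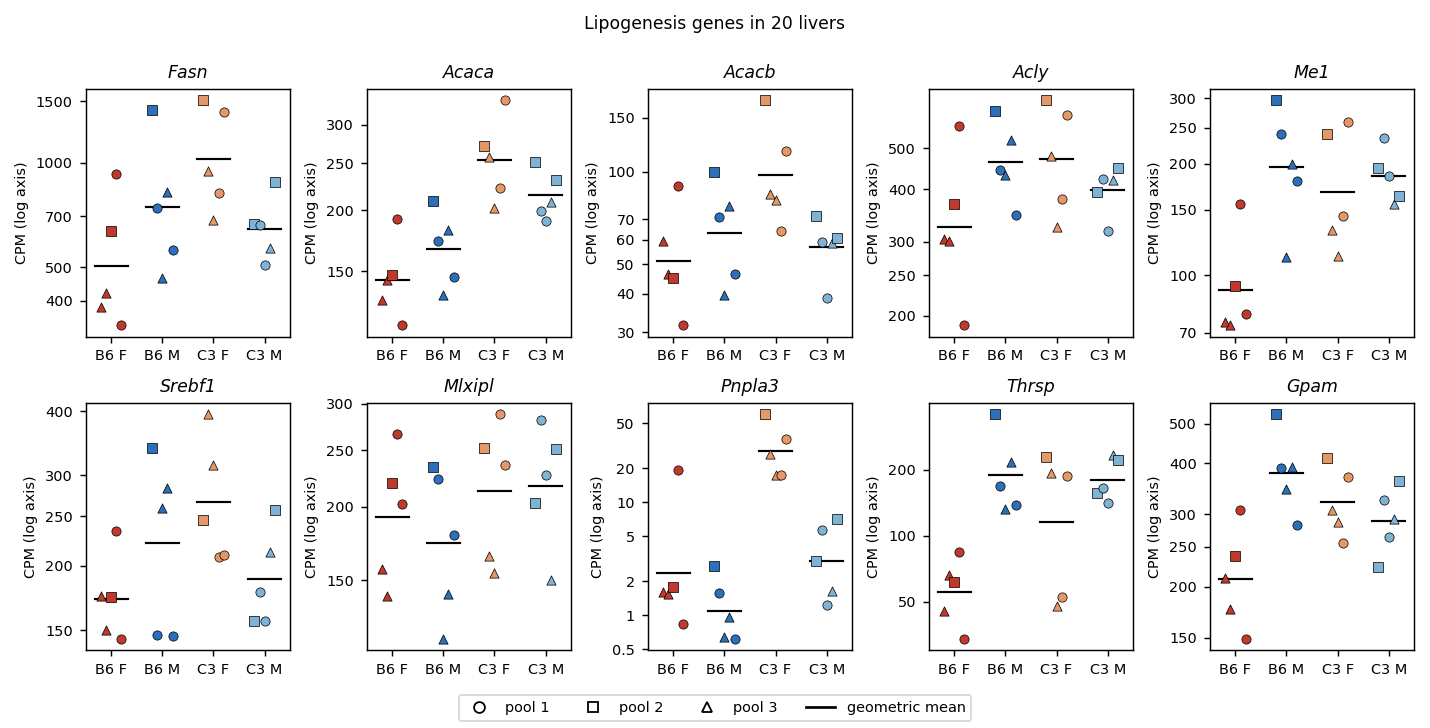
Expression of the 10 lipogenesis genes in each of 20 livers, in CPM on a log axis, by group (B6 or C3, F for female and M for male), with the sequencing pool as the symbol and the geometric mean of 5 mice as a line. B6 females have the lowest mean for 8 of the 10 genes, *Mlxipl* and *Pnpla3* being the others, and for *Pnpla3* the C3 females at 17.4 to 60.3 CPM stand above every C3 male.

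**Figure D2:**
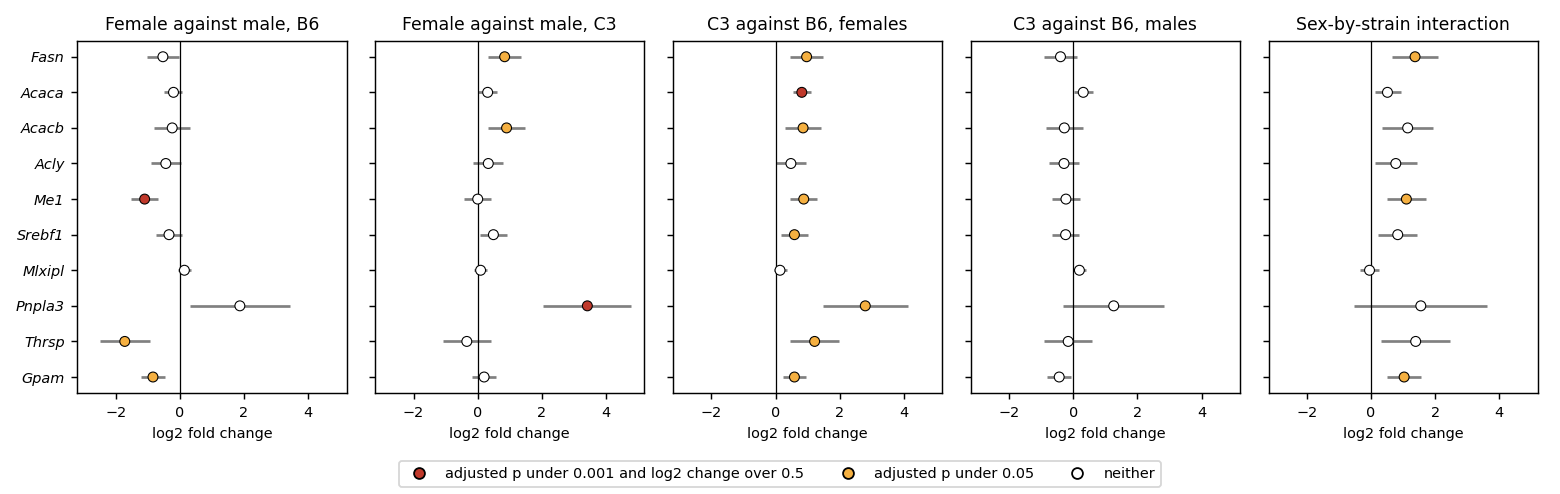
Log2 fold changes of the 10 genes in the 4 comparisons and in the sex-by-strain interaction, with lines for the 95% confidence interval of the edgeR fit over 20 livers and colors for the thresholds passed. All 10 points lie above 0 for C3 against B6 in females, and 3 of 10 do so in males.

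*Srebf1* encodes SREBP1, the factor through which insulin induces lipogenic enzymes. It was at 175, 150, 174, 234 and 144 CPM in B6 females and at 246, 395, 315, 208 and 210 CPM in C3 females. These ranges overlap, and the log2 fold change of C3 against B6 was 0.59 (SE 0.20, adjusted p = 0.03). In males the levels were 340, 147, 259, 283 and 146 CPM in B6 and 156, 178, 156, 213 and 257 CPM in C3, a log2 fold change of -0.24 (SE 0.20, adjusted p = 0.38). Females against males gave -0.34 in B6 (adjusted p = 0.2) and 0.49 in C3 (adjusted p = 0.064).

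*Mlxipl* encodes ChREBP, which responds to glucose metabolites. Its group means of 179 to 222 CPM were the most alike of the 10 genes, and its log2 fold changes lay between 0.09 and 0.19 in the 4 comparisons, with adjusted p from 0.14 to 0.46. The widest of these differences, C3 against B6 in males, had a 95% confidence interval of -0.01 to 0.40. Sequencing pool took 83.7% of the variance of *Mlxipl* within groups, with libraries of pool 3 lower than those of pool 1 by a log2 difference of -0.68, while pool took 15.7% to 44.5% for the other 9 members and a median of 47.9% over all genes tested.

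Acetyl-CoA and NADPH are supplied by ATP citrate lyase, encoded by *Acly*, and by the cytosolic malic enzyme, encoded by *Me1*. *Acly* was at 346 ± 138 CPM in B6 females against 472 ± 101 CPM in B6 males, and at 487 ± 139 CPM in C3 females against 401 ± 49.7 CPM in C3 males (SD, n = 5 each). Its log2 fold changes of -0.44 and 0.33 for sex in B6 and C3, and of 0.48 and -0.29 for strain in females and males, had adjusted p from 0.11 to 0.33. Without B6 female 4 it was lower in B6 females than in males, by a log2 fold change of -0.74 (adjusted p = 0.0045), and higher in C3 than in B6 females, by 0.79 (adjusted p = 0.0023). Over each liver left out in turn, these values ranged from -0.74 to -0.30 and from 0.33 to 0.79, with adjusted p up to 0.27 in each.

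*Me1* was at 74.8, 73.3, 93.4, 156 and 78.8 CPM in B6 females and at 296, 240, 112, 199 and 179 CPM in B6 males. B6 female 4 lay within the male range and the other 4 females lay under it. The log2 fold change of B6 females against males was -1.10 (SE 0.20, adjusted p = 0.00049), a ratio of 0.467. Leaving out any of 7 of the 10 B6 livers (females 1, 2, 3 and 5 and males 1, 2 and 4) raised the adjusted p above 0.001, to at most 0.0022, with log2 fold changes between -1.11 and -0.98. The call was also lost without the pool term (-1.11, adjusted p = 0.0082), with only B6 livers in the fit (-1.09, adjusted p = 0.0047) and with limma (-0.98 or -0.97, adjusted p = 0.0016). The sign was negative in each of the 3 pools, from -1.66 to -0.90.

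In C3, *Me1* was at 240, 132, 113, 144 and 259 CPM in females and at 195, 234, 185, 156 and 164 CPM in males. The female range enclosed the male range, and the log2 fold change was 0.00 (SE 0.20, adjusted p = 0.99, 95% confidence interval -0.42 to 0.43). C3 females were above B6 females by 0.88 (adjusted p = 0.0027), and C3 males differed from B6 males by -0.23 (adjusted p = 0.41).

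Malonyl-CoA is made by 2 acetyl-CoA carboxylases. The enzyme encoded by *Acaca* is cytosolic and supplies fatty acid synthesis, and that encoded by *Acacb* is held at mitochondria, where malonyl-CoA restrains the entry of fatty acids for oxidation. *Acaca* was at 131, 144, 147, 192 and 116 CPM in B6 females and at 272, 258, 202, 222 and 337 CPM in C3 females. Every C3 female was above every B6 female, as was so for 6.34% of all genes. The log2 fold change was 0.82 (SE 0.14, adjusted p = 0.00013), or 1.77-fold, and without any of the 20 livers in turn the adjusted p was at most 0.00062. With only the 10 female livers in the fit, the log2 fold change was 0.81 (adjusted p = 0.0032) and missed the threshold of 0.001. In males, at 169 ± 29.8 CPM in B6 and 216 ± 25.2 CPM in C3 (SD, n = 5 each), it was 0.31 (adjusted p = 0.096 by edgeR). *Acaca* was thus above 0 for strain in both sexes, unlike *Fasn* and *Acacb*, but its interaction of 0.51 had an adjusted p of 0.18.

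*Acacb* was at 59.3, 46.3, 44.9, 89.8 and 31.6 CPM in B6 females and at 171, 84.6, 81.2, 64 and 117 CPM in C3 females. The ranges overlap through B6 female 4, and the log2 fold change was 0.86 (SE 0.27, adjusted p = 0.02). C3 males, at 71.6, 59.2, 38.8, 58.8 and 61 CPM, overlapped C3 females through C3 female 4, and females against males gave a log2 fold change of 0.90 (SE 0.27, adjusted p = 0.014). B6 males were at 99.6, 71.1, 39.8, 77.4 and 46.4 CPM, within reach of both female groups, and neither their comparison with B6 females nor that with C3 males passed a threshold (adjusted p = 0.51 and 0.44).

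The balance of the 2 carboxylase genes was taken as the ratio of their TPM values, in which counts are divided by gene length. *Acaca* was the more abundant RNA in every liver. The ratio was 2.08, 2.92, 3.06, 2.01 and 3.44 in B6 females and 1.97, 2.28, 3.17, 2.21 and 2.94 in B6 males. In C3 it was 1.49, 2.87, 2.33, 3.25 and 2.71 in the females and 3.32, 3.15, 4.6, 3.33 and 3.56 in the males. C3 males held the highest ratios, overlapping the next groups only through C3 female 4 and B6 male 3 and female 5. The log2 ratio was lower in C3 females than in C3 males by -0.54, and higher in C3 than in B6 males by 0.52, each with p = 0.0159 in a two-sided exact permutation test over all splits of 10 livers, whose smallest possible p is 0.00794, and an adjusted p of 0.0317 over the 4 comparisons. In B6 the sexes differed by 0.10 (exact permutation, adjusted p = 0.69) and among females the strains differed by -0.11 (exact permutation, adjusted p = 0.69). Permuted within pools, the adjusted p of both called differences was 0.0741, and leaving out C3 male 1, 3, 4 or 5 raised it to at most 0.0794 in each.

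**Figure D3:**
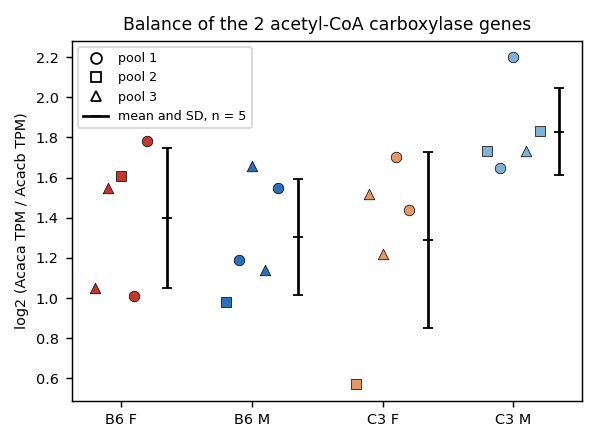
Log2 of the *Acaca* to *Acacb* TPM ratio in each liver by group, with the sequencing pool as the symbol and the mean and SD of 5 mice beside the points. The C3 males lie between 1.65 and 2.20, and the other 3 groups reach from 0.57 to 1.78.

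*Fasn* encodes fatty acid synthase, which assembles palmitate. It was at 385, 421, 634, 928 and 340 CPM in B6 females and at 1510, 945, 685, 815 and 1400 CPM in C3 females. B6 female 4 lay among the C3 females and the other 4 lay under them. The log2 fold change was 0.97 (SE 0.24, adjusted p = 0.0048), or 1.95-fold, and without B6 female 4 it was 1.29 (adjusted p = 0.00011). It ranged from 0.83 to 1.29 over each liver left out in turn, with adjusted p up to 0.02. C3 males, at 664, 659, 506, 566 and 880 CPM, overlapped C3 females, but 23 of the 25 pairs of a C3 female with a C3 male had the higher value in the female, and the log2 fold change was 0.84 (SE 0.24, adjusted p = 0.012). B6 males spread from 464 to 1420 CPM, with values of 1420, 742, 464, 825 and 560. They did not differ from B6 females at an adjusted p under 0.05 (log2 fold change -0.53, adjusted p = 0.1, 95% confidence interval -1.04 to -0.02). Without B6 female 4 the value was -0.83 (adjusted p = 0.0051). Over each liver left out in turn it ranged from -0.83 to -0.39, with adjusted p from 0.0051 to 0.26.

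*Thrsp* encodes Spot 14, a thyroid hormone-responsive protein that is induced along with lipogenic enzymes. It was at 45.5, 66.1, 61.7, 84.4 and 33.9 CPM in B6 females and at 357, 168, 133, 216 and 138 CPM in B6 males. Every B6 female was below every B6 male, as for 5.1% of all genes. The log2 fold change was -1.72 (SE 0.37, adjusted p = 0.0017), a ratio of 0.303, which missed the threshold of 0.001. It passed without B6 female 4, C3 female 3 or C3 female 4, with log2 fold changes between -1.99 and -1.72. C3 females 1, 2 and 5 were at 229, 192 and 186 CPM, within the range of the C3 males at 156, 164, 141, 234 and 221 CPM, while C3 females 3 and 4 were at 47.8 and 52.9 CPM, within the B6 female range. Sex in C3 gave -0.34 (adjusted p = 0.48) and strain in females 1.22 (SE 0.37, adjusted p = 0.015).

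*Gpam* encodes the mitochondrial glycerol-3-phosphate acyltransferase that starts the esterification of fatty acids to glycerol. It was at 210, 176, 237, 307 and 149 CPM in B6 females and at 527, 390, 346, 391 and 283 CPM in B6 males, a log2 fold change of -0.84 (SE 0.18, adjusted p = 0.0015). Only B6 female 4 reached into the male range. The adjusted p went under 0.001 without B6 female 4, B6 male 5 or C3 male 1, with log2 fold changes between -1.03 and -0.83. In C3 the females, at 411, 307, 287, 256 and 370 CPM, and the males, at 224, 326, 264, 292 and 362 CPM, overlapped (0.20, adjusted p = 0.39). C3 females were above B6 females (0.59, adjusted p = 0.015), while C3 males were below B6 males without passing a threshold (-0.44, adjusted p = 0.063).

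*Pnpla3* encodes a protein of lipid droplets that is induced with lipogenesis and has been tied to fatty liver. It had the lowest TPM of the 10 genes and the largest coefficient of variation in 3 of the 4 groups. C3 females stood at 60.3, 26.7, 17.5, 17.4 and 36.7 CPM, and C3 males at 3.02, 5.67, 1.23, 1.64 and 7.14 CPM. These groups do not overlap, as for 7.38% of all genes in that direction, and the log2 fold change was 3.42 (SE 0.65, adjusted p = 0.00063), or 10.7-fold. The sign was positive in each pool, from 3.22 to 3.68. Without any of 8 C3 livers (females 1, 3 and 5 and each male) the adjusted p rose above 0.001, to at most 0.0046, with log2 fold changes from 3.17 to 3.66. Without the pool term the value was 3.09 (adjusted p = 0.0074), also above the threshold.

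In B6 the *Pnpla3* level was 1.59, 1.55, 1.79, 19.3 and 0.844 CPM in females and 2.73, 1.56, 0.637, 0.962 and 0.614 CPM in males. B6 female 4 alone lay at the level of the C3 females, and its 713 counts compare with 31 in the lowest female. The log2 fold change of B6 females against males was 1.87 (SE 0.74, adjusted p = 0.057) with this liver and 0.30 (adjusted p = 0.67) without it. C3 females were above B6 females by 2.80 (SE 0.63, adjusted p = 0.0021), and without B6 female 4 by 4.32 (adjusted p = 4.4e-07). Over each liver left out in turn this difference ranged from 2.44 to 4.32, with adjusted p up to 0.0088. Among males the strain difference was 1.26 (SE 0.75, adjusted p = 0.21).

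Whether the sex difference itself depended on strain was tested as an interaction, the female-to-male log2 fold change in C3 minus that in B6. It was above 0 for 9 of the 10 members and 51.5% of all genes, with a median of 1.07 against 0.007 over all genes. The edgeR test called 0 members at the thresholds of the study, where 0.401% of all genes were called, and DESeq2 and limma also called 0. At an unadjusted p under 0.05 there were 8 members, a level at which the share of all genes was not counted. At an adjusted p under 0.05 there were 3, against 1.98% of all genes in that direction: *Fasn* at 1.37 (SE 0.34, adjusted p = 0.035), *Me1* at 1.10 (SE 0.29, adjusted p = 0.043) and *Gpam* at 1.03 (SE 0.25, adjusted p = 0.029). *Thrsp* had 1.39 (adjusted p = 0.17), *Acacb* 1.14 (adjusted p = 0.12), *Pnpla3* 1.55 (SE 0.99, adjusted p = 0.48) and *Mlxipl* -0.05 (adjusted p = 0.91).

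Without B6 female 4 the interaction of *Pnpla3* was 2.99 (adjusted p = 0.007). Over each liver left out in turn it ranged from 1.24 to 2.99, with adjusted p from 0.007 to 0.67. The count of 3 depended on single livers and on the pool term. It was 8 without B6 female 4, and 0 without any of 7 livers in turn (B6 females 1 and 2, B6 males 1 and 4, C3 females 1 and 5 and C3 male 3). Without pool in the model it was 0. The interaction of *Fasn* stayed between 1.2 and 1.67 without each liver in turn, with adjusted p from 0.002 to 0.1, and was 1.28 without pool (adjusted p = 0.3).

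Within groups, the members varied more than most genes. The median coefficient of variation of the 10 members was 35% and 34.9% in B6 females and males, and 31.6% and 21.1% in C3 females and males, where the medians of all genes tested were 17.7%, 18.3%, 17.8% and 15.9%. The livers high for 1 member tended to be high for the rest. B6 female 4 and B6 male 1 had the highest value of their group for all 10 members and exceeded the group mean by 0.87 and 0.66 log2 units on average. C3 females 1 and 5 and C3 male 5 were above their group mean for 9 of 10 members. At the low end, B6 female 5 (-0.54), C3 female 3 (-0.46) and B6 male 3 (-0.43) were each above their group mean for 1 member.

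**Figure D4:**
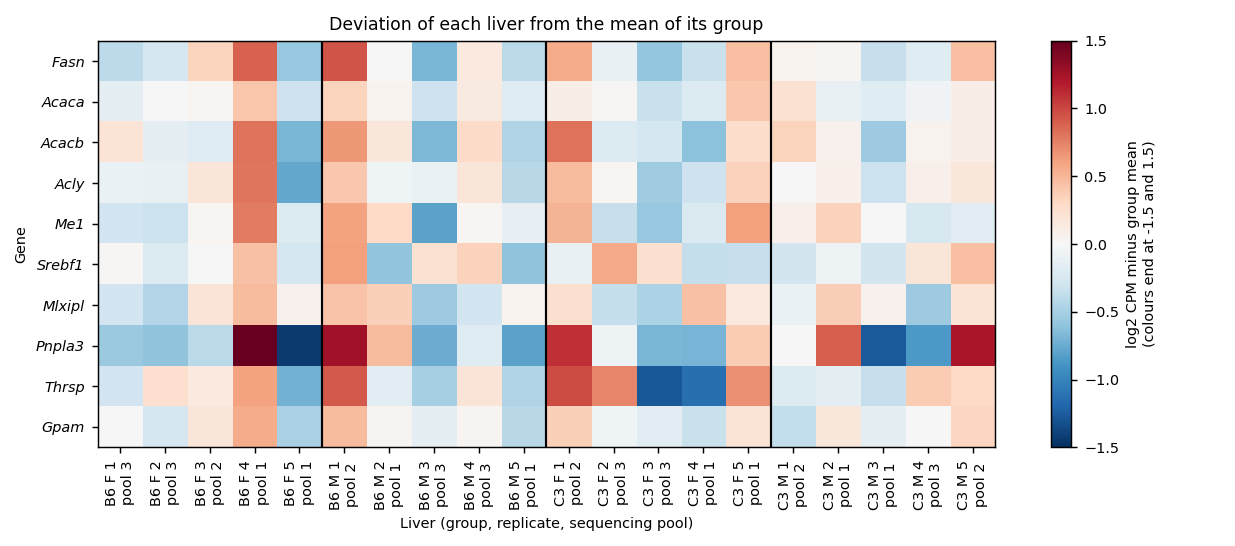
Deviation of each liver from the mean of its group for the 10 genes, in log2 CPM, with groups separated by black lines and the sequencing pool under each liver. The columns of B6 female 4 and B6 male 1 are above 0 for all 10 genes, and *Pnpla3* spans the widest range, from -1.43 to 3.0.

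After removal of group and pool means, each of the other 9 members correlated with *Fasn* over the 20 livers. Pearson's r was 0.92 for *Acly*, 0.89 for *Me1*, 0.88 for *Acaca*, 0.87 for *Gpam*, 0.84 for *Acacb* and *Pnpla3* and 0.81 for *Thrsp*, with adjusted permutation p of at most 0.00039 over the 9 tests (two-sided, 100000 resamples within groups). Spearman's rho of these 7 was 0.78 to 0.91 (adjusted permutation p at most 0.00069). B6 females 4 and 5 were the livers farthest from the median of *Fasn*. With both dropped after removal of the means, r was 0.70 to 0.86, with adjusted permutation p of at most 0.0036. The group and pool means still included these livers, so this check cannot show that r is independent of them. All 9 members had a positive r at an unadjusted permutation p under 0.05, as did 7.37% of all 13703 other genes tested against *Fasn* in the same way, and with adjustment over all these genes 5 members did, against 0.102%.

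The transcription factor genes followed *Fasn* less closely. *Srebf1* had r = 0.62 (permutation, adjusted p = 0.021) and rho = 0.49 (permutation, adjusted p = 0.052), and *Mlxipl* had r = 0.62 (permutation, adjusted p = 0.0099) and rho = 0.62 (permutation, adjusted p = 0.012). With the same livers dropped in that way, both genes fell to r = 0.50 (permutation, adjusted p = 0.077), past no threshold. Over all 45 pairs of members r ranged from 0.30, for *Acacb* with *Srebf1*, to 0.93, with a median of 0.70.

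The 8 genes outside the list with the highest Pearson's r to the mean deviation of the members over the 20 livers are given as a description, with no test. They were *Acss2*, which makes acetyl-CoA from acetate (0.937), *Sc5d*, a desaturase of sterol synthesis (0.933), *Gm11437* (0.918), *Chrna4*, a nicotinic receptor subunit (0.907), *Nfe2*, a transcription factor gene (0.898), *Acsl5*, an acyl-CoA synthetase gene (0.888), *Tlcd1* (0.878) and *Slc19a2*, a thiamine transporter gene (0.875). The median r over all genes tested was -0.001. Between the strains, *Acss2* was lower in C3 than in B6 males (log2 fold change -1.15, adjusted p = 0.0016), without overlap between the groups, as for 8.4% of all genes.

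By TPM, which allows levels of different genes to be set side by side, the order of the medians over 20 livers was *Thrsp* (263), *Acly* (186), *Gpam* (164), *Fasn* (143), *Mlxipl* (121), *Srebf1* (95.9), *Me1* (91.5), *Acaca* (44), *Acacb* (15.4) and *Pnpla3* (1.01). The ranges of every pair of neighbours in this order overlap.

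The enzymes that feed lipogenesis were followed in a list of 10 genes. In B6 all 10 had lower mean expression in females than in males, 8 of them at an adjusted p under 0.05, where 18.4% of all genes were lower, and the median log2 fold change was -0.43. In C3 females 1 gene of the list was called against males, *G6pdx* of the pentose phosphate pathway (0.89, SE 0.17, adjusted p = 0.00049), as were 4.11% of all genes in that direction. *Pgd*, of the same pathway, was called higher in C3 than in B6 females (0.60, SE 0.12, adjusted p = 0.00056). Between males edgeR called 0 of 10, against 9.64% of all genes. There 6 had an unadjusted p under 0.05, with the share of all genes not counted. At an adjusted p under 0.05, 6 were lower in C3 males, against 17.5% of all genes. *Pklr*, pyruvate kinase of liver, had -0.53 for sex in B6 (adjusted p = 0.014) and was not called in any comparison.

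Among 9 genes of elongation and desaturation, 7 were higher in C3 than in B6 females at an adjusted p under 0.05 and 1 was lower, where 17.7% of all genes were higher and 15.3% lower, and the median was 0.78. *Elovl5* (1.08, adjusted p = 0.00012), *Elovl2* (0.78, adjusted p = 5.8e-06) and *Fads2* (0.78, adjusted p = 4.9e-05), which act on polyunsaturated fatty acids, were called, as were 4.63% of all genes in that direction. *Scd1*, which makes monounsaturated fatty acids, was at 1350, 1590, 2910, 6180 and 1960 CPM in B6 females and 18900, 10700, 2580, 8780 and 4180 CPM in B6 males. Its log2 fold changes were -1.68 for sex in B6 (adjusted p = 0.0026) and 1.80 for strain in females (adjusted p = 0.0012), and 0.18 and -0.05 for sex in C3 and strain in males (adjusted p = 0.73 and 0.93). *Elovl6*, which extends palmitate, had 1.10 for strain in females (adjusted p = 0.0051) and no other adjusted p under 0.05.

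*Elovl3* stood apart from this pattern: its mean was 9.35 CPM in B6 females and 757 CPM in B6 males, and 3.35 and 496 CPM in C3, with log2 fold changes of -6.32 (adjusted p = 1.4e-10) and -7.28 (adjusted p = 4.4e-11). Between males, *Elovl2* was called higher in C3 (0.62, adjusted p = 8.5e-05) and *Scd2* lower (-0.62, adjusted p = 0.00049).

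For glycerolipid synthesis, 10 of 12 listed genes could be tested. In B6, 3 were called lower in females, against 3.12% of all genes: *Mogat1*, a monoacylglycerol acyltransferase (-2.62, adjusted p = 3.3e-06), *Agpat2* (-0.57, adjusted p = 2.3e-05) and *Gpat4* (-0.51, adjusted p = 0.00022). *Mogat1* averaged 2.58 CPM in B6 males and 0.406, 0.334 and 0.180 CPM in B6 females, C3 females and C3 males, so its strain difference in males (-3.85, adjusted p = 1e-07) and its interaction (3.54, adjusted p = 0.0008) rest on counts near the level of 3 per library, 0.0713 to 0.116 CPM in C3 males. Sex in C3 and strain in females called 0 of these 10 genes, against 6.9% and 9.4% of all genes. At an unadjusted p under 0.05 there were 4 and 3, with the share of all genes not counted. At an adjusted p under 0.05 there were 2 and 2, against 40% and 32.9% of all genes.

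Of 18 regulators of the pathway, *Pparg*, a nuclear receptor gene best known from adipocytes, differed most. It was at 7.51, 6.15, 15, 9.13 and 5.28 CPM in B6 females and 18.9, 25.1, 15, 17.1 and 15.8 CPM in B6 males, against at most 0.605 CPM in any C3 liver, with log2 fold changes of C3 against B6 of -4.29 in females (adjusted p = 3.5e-10) and -6.82 in males (adjusted p = 3.2e-12). C3 males were at 0.116 to 0.214 CPM, near the level of 3 counts per library (0.0713 to 0.116 CPM). The size of the change in males is therefore loosely measured. *Insig2*, whose product holds SREBP in the endoplasmic reticulum, was called lower in B6 females than in males (-0.90, adjusted p = 2e-06) and higher in C3 than in B6 females (0.74, adjusted p = 1.2e-05), with an interaction of 0.80 (adjusted p = 0.0031). *Prkaa2*, a catalytic subunit of AMP-activated kinase, was called in the same comparisons (-0.52 and 0.63). *Mlx*, the partner of ChREBP, was called lower in C3 females than in males (-0.52, adjusted p = 0.00058). *Insig1* had adjusted p from 0.21 to 0.82 in all 5 tests. *Nr1h3*, the liver X receptor alpha gene, and *Mid1ip1*, a relative of *Thrsp*, were not called, with log2 fold changes down to -0.21 and -0.47.

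Necropsies were spread over several hours of a morning, and the labels give no time for a single mouse, so genes of fasting and of the circadian clock were read beside the members. Of 11 genes of the fed and fasted state, *Fgf21* was called higher in C3 than in B6 mice of both sexes (4.32 in females, 3.34 in males), and *Pdk4*, a fasting-induced kinase gene, was called higher in C3 females than in C3 males (1.63, adjusted p = 0.00082). Of 12 clock genes, *Nr1d2* was called higher in B6 females than in B6 males (0.82, adjusted p = 0.0006). At an adjusted p under 0.05, 7 clock genes differed by sex in B6, 4 higher and 3 lower in females, against 34.6% of all genes. For sex in C3, 4 did, all lower in females, against 40%. Between the strains, 4 differed in males, all higher in C3, against 34.5%, and 0 in females, against 32.9%. Over the 20 livers with group and pool removed, the mean deviation of the members had r = 0.68 with *Pdk4*, -0.45 with *Pck1*, 0.57 with *Arntl*, -0.56 with *Per1* and 0.04 with *Dbp*. These values share libraries with the members, and the part of feeding and of the hour of collection in the spread between livers was not tested.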

How the data were processed

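Liver RNA of 20 mice in 4 groups of 5 was analysed. Per the labels and methods, stranded libraries of total RNA depleted of ribosomal RNA were trimmed with Cutadapt 1.9.1, aligned to mm9 with STAR 2.5.1b and counted on RefSeq genes with featureCounts (Subread 1.5.0-p1), without multimapping or multi-overlapping reads. The authors deposited raw counts and TPM values, and the gene length behind the TPM is not given in the sources used here. The headers of the symbol and identifier columns are exchanged and were read by content. Small RNA genes lie inside *Acly*, *Srebf1* and *Pnpla3* on the same strand.

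Counts were fitted in R 4.3.3 with edgeR 4.0.16 (filterByExpr, TMM, quasi-likelihood, group and pool as terms, all 20 libraries), with Benjamini-Hochberg adjustment over 13704 genes. A gene was called at an adjusted p under 0.001 and a log2 fold change beyond 0.5, as in the methods, and an adjusted p under 0.05 is also used. Correlations used log2 CPM with a prior count of 2. No pair of libraries of a group agreed within sampling noise, so each was counted as 1 sample. At these depths 3 counts correspond to 0.059 to 0.116 CPM, which covers counting error only, since PCR reads without molecular identifiers are not independent.

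Alternatives were other scalings, no filter, DESeq2 1.42.0, limma 3.58.1 on log2(TPM + 1) and log2(TPM + 0.1), no pool term, a replicate block, the groups compared alone, and each liver left out. The fit was tested on simulated data. The members and gene lists were chosen with earlier results of these data known. From the pathway, feeding and clock lists the text names at most 4 called genes per list and comparison, those with the largest change, and Scd1, Elovl6, Pklr, Insig2, Insig1, Nr1h3 and Mid1ip1 whatever their values. A gene of the list of precursor enzymes is not reported here by name, and the counts of that list include it. The feeding and clock genes quoted only for their correlation (Pck1, Arntl, Per1 and Dbp) were chosen after their values were seen, as was the use of an adjusted p under 0.05 with each liver left out.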

Additional observations from a re-analysis of the deposited data

Results flagged for a closer look

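In 2 of the 44 groups of 5 values examined, a single liver stood apart from the rest, where chance alone gives about 1 in 20. *Me1* was at 156 CPM in B6 female 4, against 93.4 CPM in the next B6 female, and *Pnpla3* was at 19.3 CPM in the same liver, against 1.79 CPM in the next. The gap to the nearest liver was a share of 0.757 and 0.949 of the range of the group, above Dixon's critical value of 0.71 for 5 values.

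The sex-by-strain interaction term had an adjusted p under 0.05 for *Fasn* (1.37), *Me1* (1.10) and *Gpam* (1.03, all in log2 units), with females below males in B6 for all 3 genes and at or above them in C3. None of the 3 passed the thresholds of the study. The number of members at this level was 0 without any of 7 single livers in turn and 0 without the pool term, where the adjusted p was 0.3 for *Fasn*, 0.35 for *Me1* and 0.12 for *Gpam*, and *Me1* had 0.058 or 0.06 with limma.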

How the results depend on the processing

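Of 440 values of the members under other settings, 422 kept their direction and their side of the thresholds, 6 gained the call, 6 lost it and 6 changed sign. Most of these values belong to tests not called in the main fit, which had no call to lose. The call held in 5 of 9 settings for *Me1* (sex in B6), and in 8 of 9 each for *Pnpla3* (sex in C3) and *Acaca* (strain in females). At an adjusted p under 0.05 with no fold limit, 3 members differed by sex in B6, 3 by sex in C3, 8 by strain in females and 3 in the interaction. For sex in B6, DESeq2 called 3 members, and 0 were called by limma at either pseudocount, without the pool term or with only the groups compared. For sex in C3, 0 were called without the pool term. For strain in females, DESeq2 called 3, limma 2 at either pseudocount, and the fit of only the groups compared 0. At an adjusted p under 0.05, sex in C3 gave 5 members with upper quartile scaling or limma and 1 without pool, and strain in males gave 1 with upper quartile scaling, DESeq2, limma or only the groups compared. With each liver left out, the members called ranged from 0 to 3, 0 to 1 and 1 to 5 in these comparisons, were 0 to 0 for strain in males and for the interaction, and reached 3 and 5 without B6 female 4; members correlated with *Fasn* numbered 8 to 9. The log2 ratio of *Acaca* to *Acacb* had -0.61 within pools for sex in C3 (adjusted p = 0.0741) and 0.56 for strain in males (adjusted p = 0.0741). With each liver left out it ranged from -0.64 to -0.36 and from 0.43 to 0.61, from 0.00 to 0.19 for sex in B6 and from -0.21 to 0.07 for strain in females, where it changed sign without C3 female 1.

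Same-numbered mice did not deviate together (mean correlation of -0.24 to 0.22 over the 4 comparisons). With a replicate block and pool, the members called numbered 1, 1, 1, 0 and 0 in the 5 comparisons, as without the block. For the ratio, the replicate block gave -0.54 and 0.52 with an adjusted p of 0.125, in a design whose pairs allow few permutations.

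*Me1* for sex in C3, near 0 in every fit, changed sign with DESeq2 size factors (-0.01), without the filter (0.00), with DESeq2 (-0.01), without pool (-0.07), with only the groups compared (0.00) and without single livers (-0.12 to 0.11); *Mlxipl* for sex in C3 did so without pool (-0.02) and in the interaction without single livers (-0.12 to 0.02), and *Thrsp* for strain in males without B6 male 1 (-0.37 to 0.04 over all livers). The cause of these changes was not tested. Counts of all genes called moved by over 1.5 times without pool for sex in B6 and C3 (421 and 482, against 869 and 945). Without pool they also did so for strain in females (815 against 1288) and for the interaction (20 against 55). The same held for sex in C3 with only the groups compared (625) and for the interaction with DESeq2 (181). The interaction count moved as far without B6 male 1 (32), C3 female 1 (34) or C3 male 4 (33). Limma on TPM shifted the median of all genes by 0.10 to 0.12 in the sex comparisons.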
